A study of Mus musculus with 8 samples.

Results

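The tumour necrosis factor (TNF) ligand and receptor superfamilies were examined in mouse liver after knockdown of Eif4ebp3. Members were the genes whose names in the authors' table begin with Tnfsf or Tnfrsf, plus Tnf, Lta, Ltb, Ltbr, Cd40, Cd40lg, Fas, Fasl, Cd27 and Cd70. They numbered 43 of the 55536 genes of the series, namely 24 receptors, 18 ligands and 1 antisense transcript, Tnfsf13os. Livers came from lean wild-type C57BL/6 mice aged 2 months, fasted overnight. All animals had received 0.1 OD of adenovirus 1 week before. In the control group (n = 4) the virus was directed at lacZ, a bacterial gene, and in the knockdown group (n = 4) at Eif4ebp3, whose product restrains translation by binding eIF4E. Animals without virus were not part of the comparison, so all values describe virus-injected livers. The labels do not say which cell types the virus reached, and each library is whole-liver RNA.

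Ligands of the superfamily are membrane-bound or shed trimers, and they act by clustering their receptors on a neighbouring cell. Receptors with a cytoplasmic death domain can recruit caspase-8 and kill the cell, whereas others recruit TRAF adaptors and activate NF-kB. Decoy receptors bind ligand without a signal of their own. In liver the family is known for hepatocyte death through Fas and the TNF receptors, for injury-induced Fn14, and for the costimulation of lymphocytes.

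Eif4ebp3 held 289, 216, 204 and 49.3 CPM in control replicates 1 to 4 and 9.62, 13.9, 37.2 and 19.5 CPM in knockdown replicates 1 to 4. CPM are counts scaled to library size after TMM normalisation. The groups did not overlap, but control replicate 4 lay nearest the knockdown samples, so results that change without it are marked. Total counts over genes ranged from 24189202 to 32073994. TMM factors were below 1 in every control (0.776 to 0.890) and above 1 in every knockdown sample (1.147 to 1.265), so changes are relative to the median gene. Without these factors the median of all genes moved by 0.564 on the log2 scale, and the share of calls that were higher went from 51.5% to 89.2%.

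The superfamily transcripts were mostly higher in the knockdown livers. Of the 43 members, 23 rose, 0 fell, 6 were tested without a call and 14 had too few counts to be tested (edgeR's quasi-likelihood test, Benjamini-Hochberg adjusted p under 0.05 over 15375 genes). Among all genes tested, 29.5% were called higher and 27.8% lower. Of the receptors 16 rose and 4 were not called, and of the ligands 7 rose and 2 were not called. The called ligand genes Tnfsf12 and Tnfsf13 share exon bases with their readthrough Tnfsfm13, also called, so these calls are not separate. The largest differences were in the receptor genes Tnfrsf10b, Tnfrsf12a and Tnfrsf9. No member was lower at an unadjusted p under 0.05 either. DESeq2 called 22 members higher and 0 lower, against 4547 and 4355 of the 15375 genes. A gene could pass the low-count filter through the knockdown samples alone, as 9 members did. They were Cd27, Fasl, Tnf, Tnfrsf10b, Tnfrsf23, Tnfrsf4, Tnfrsf9, Tnfsf13b and Tnfsf14. For these 9 the filter itself favoured a higher value in the knockdown samples. The filter reads counts scaled by library total alone, before TMM, with a cutoff of 0.388 on that scale. The other 20 tested members lay above it in every control, and of these 15 rose and 0 fell. The matching share over all genes above it in every control was not computed. Knockdown values lay entirely above the controls for 20 members and entirely below for 0, against 27.4% and 24.7% of all genes tested. In bulk RNA, more cells of a type and more RNA per cell cannot be told apart.

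**Figure D1:**
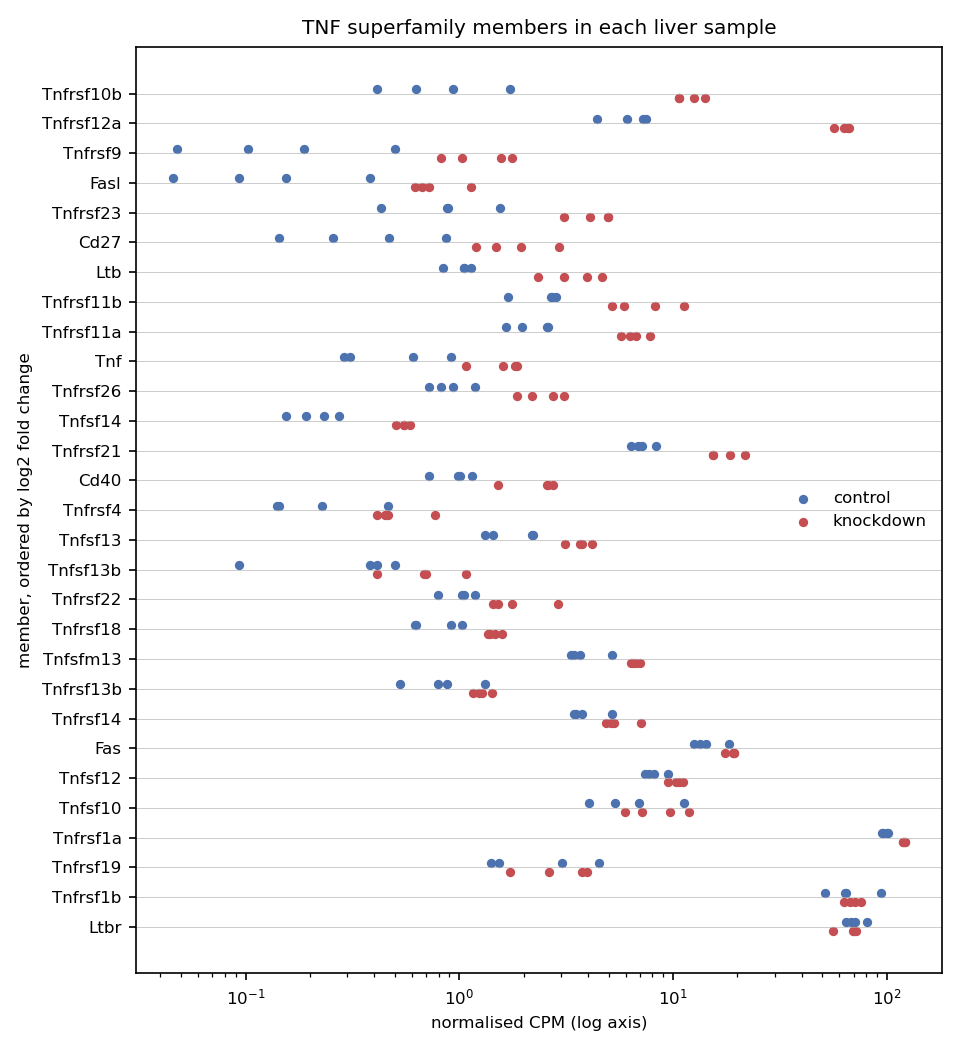
Each point is 1 liver sample, with normalised CPM on a log axis for the 29 tested members, ordered by log2 fold change. The 4 knockdown samples (red) lie to the right of the 4 controls (blue) for 20 members, and the groups overlap for the other 9, among them Ltbr and Tnfrsf1b.

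Tnfrsf12a, which encodes Fn14, the receptor for TWEAK, had the smallest p of the family. It held 4.42, 6.08, 7.20 and 7.45 CPM in the controls and 56.6, 66.5, 63.1 and 65.8 CPM in the knockdown samples. Every knockdown sample was far above the highest control, and replicates within a group lay close together. The log2 fold change was 3.32 ± 0.15 (SE) (adjusted p = 1.85e-07, edgeR). The gene lies on chromosome 17 at 23675445 to 23677468 of mm10.

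Its ligand gene Tnfsf12 moved far less. Tnfsf12 held 7.68, 8.18, 7.41 and 9.46 CPM in the controls and 9.50, 10.6, 11.2 and 10.3 CPM in the knockdown samples. The groups did not overlap, but the nearest samples were almost equal. It rose by 0.35 ± 0.11 (log2, SE; adjusted p = 0.0236, edgeR), a call lost when control 1, 2 or 3 or knockdown 2 was left out (adjusted p = 0.0684, 0.0548, 0.0680 and 0.0583). Within a sample, the log2 ratio of Tnfrsf12a to Tnfsf12 counts went from -0.40 ± 0.31 to 2.59 ± 0.08 (SD, n = 4 each; two-sided exact permutation p = 0.0286, the smallest that 4 against 4 allow). No normalisation factor enters such a ratio. It was computed for 8 pairs of members chosen after their values were seen, and the adjusted p over these pairs was 0.0457 (Benjamini-Hochberg). Since the values were known when the pairs were chosen, the p-values of all 8 describe the ratios and are not independent support. Tnfsf12 also shares exon bases with the readthrough gene Tnfsfm13, so its counts are uncertain.

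The 250 bases before the RefSeq start (GRCm38.p6) are shown for the 3 members with the largest fold changes among those with at least 1 CPM and an entry in the promoter table. Capitals mark matches, on either strand, to any motif searched, here the GC box (GGGCGG), the TATA box (TATAAA) and the antioxidant response element (TGACNNNGC). The first window is chr17:23677450-23677699 on the minus strand, the second chr4:150919905-150920154 on the plus strand, and the third chr7:143685876-143686125 on the minus strand.
Tnfrsf12a: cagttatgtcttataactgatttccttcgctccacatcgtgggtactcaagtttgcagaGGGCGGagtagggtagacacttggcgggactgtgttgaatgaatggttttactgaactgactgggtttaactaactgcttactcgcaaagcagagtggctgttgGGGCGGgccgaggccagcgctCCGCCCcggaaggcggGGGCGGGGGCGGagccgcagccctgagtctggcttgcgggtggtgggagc
Tnfrsf9: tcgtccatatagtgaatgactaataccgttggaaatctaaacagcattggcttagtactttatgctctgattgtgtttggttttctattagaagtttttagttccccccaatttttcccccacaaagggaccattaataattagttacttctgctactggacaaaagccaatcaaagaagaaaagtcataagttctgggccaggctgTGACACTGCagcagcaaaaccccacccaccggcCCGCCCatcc
Tnfrsf23: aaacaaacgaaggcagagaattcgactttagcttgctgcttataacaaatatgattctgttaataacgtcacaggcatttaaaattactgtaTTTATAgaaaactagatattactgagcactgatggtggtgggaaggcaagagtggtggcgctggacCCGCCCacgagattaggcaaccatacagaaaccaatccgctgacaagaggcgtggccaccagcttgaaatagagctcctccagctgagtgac
The Tnfrsf12a window held 5 GC boxes, the nearest ending 39 bases before the start. The Tnfrsf9 window held 1 GC box and 1 antioxidant response element, and its RefSeq start lies 5593 bases from the GENCODE gene start. The Tnfrsf23 window held 1 GC box and 1 TATA match.

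The same search covered 32 members with an entry, 17 of them called, and 32851 windows of all genes. Each member had 1 window, at the RefSeq start nearest its GENCODE start, whereas every entry of a gene counted among the 32851. GC boxes stood in 10 of the 17 called members' windows (58.8%) and in 15 of all 32 members' windows (46.9%), against 32.7% of all windows. Matches to the NF-kB consensus stood in 1 of the 17, that of Ltb (5.88%), against 3.90% of all windows. AP-1 matches (TGANTCA) stood in 3, those of Fas, Tnfsf13 and Tnfsf14 (17.6% against 6.75%), and antioxidant response elements in 1 (5.88% against 10.2%). TATA matches stood in 2 (11.8% against 12.4%), p53 half-sites in 2 (11.8% against 7.13%) and the CRE (TGACGTCA) in 0 (against 1.55%). The motifs can overlap one another, and a match describes letters only.

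Tnfrsf10b, which encodes the mouse death receptor for TRAIL, had the largest fold change. It held 0.624, 0.935, 0.412 and 1.74 CPM in the controls and 12.6, 14.1, 10.7 and 10.7 CPM in the knockdown samples. The lowest knockdown sample was several times the highest control, and the controls themselves spread over a wide range at low counts. The log2 fold change was 3.67 ± 0.31 (SE), or 12.8-fold (adjusted p = 4.08e-06, edgeR). The gene lies on chromosome 14 at 69767472 to 69784411.

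Tnfsf10, the TRAIL gene, held 4.03, 5.33, 6.95 and 11.2 CPM in the controls and 11.8, 7.15, 5.98 and 9.72 CPM in the knockdown samples. The groups overlapped, with control replicate 4 at the level of the higher knockdown samples. The difference of 0.33 ± 0.30 (log2, SE) did not pass (adjusted p = 0.370, edgeR), whereas without control replicate 4 it was 0.67 (adjusted p = 0.0413). The within-sample log2 ratio of Tnfrsf10b to Tnfsf10 went from -2.95 ± 0.70 to 0.51 ± 0.46 (SD, n = 4 each; two-sided exact permutation p = 0.0286, adjusted 0.0457 over 8 pairs). The pair was chosen after its values were seen, and Tnfrsf10b passed the low-count filter through the knockdown samples alone.

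Mice also carry decoy receptors for TRAIL, encoded by Tnfrsf22 and Tnfrsf23, which lie beside Tnfrsf26 on chromosome 7 (143607659 to 143685872). Tnfrsf23 held 0.432, 0.888, 0.875 and 1.55 CPM in the controls and 4.95, 4.07, 3.10 and 4.95 CPM in the knockdown samples, without overlap. It rose by 2.18 ± 0.32 (log2, SE; adjusted p = 0.000168, edgeR). Tnfrsf26 held 0.720, 0.935, 0.823 and 1.19 CPM against 2.75, 2.18, 1.86 and 3.08 CPM, again without overlap, and rose by 1.42 ± 0.25 (adjusted p = 0.000582, edgeR).

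Tnfrsf22 had the smallest change of the 3 neighbours. It held 1.06, 0.795, 1.03 and 1.19 CPM in the controls and 1.77, 1.51, 1.44 and 2.90 CPM in the knockdown samples. Knockdown replicate 4 was the highest, and the other knockdown samples lay just above the controls. The rise of 0.91 ± 0.28 (adjusted p = 0.0169, edgeR) lost its call without control replicate 2 (adjusted p = 0.0522) or knockdown replicate 4 (adjusted p = 0.0511). The decoy gene Tnfrsf23 rose by less than the signalling receptor gene, and the log2 ratio of Tnfrsf23 to Tnfrsf10b fell by 1.58, from 0.08 ± 0.67 to -1.51 ± 0.34 (SD, n = 4 each; exact permutation p = 0.0286, adjusted 0.0457). This pair was chosen after its values were seen, and both of its genes passed the low-count filter through the knockdown samples alone. Tnfrsf23 and Tnfrsf26 share exon bases with the antisense gene E230032D23Rik, which held 16 counts over the controls and 24 over the knockdown samples. The family copies on chromosome 7 are related in sequence, so some reads may have been split between them.

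Fas, the death receptor long studied in hepatocytes, rose slightly. It held 14.2, 12.5, 13.4 and 18.4 CPM in the controls and 19.2, 19.1, 17.6 and 19.4 CPM in the knockdown samples. Control replicate 4 lay inside the knockdown range and the other controls below it. The difference was 0.36 ± 0.12 (log2, SE; adjusted p = 0.0225, edgeR). Leaving out control 1, 2 or 3 or knockdown 2 ended the call (adjusted p = 0.0558, 0.0731, 0.0644 and 0.0523).

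Fasl, its ligand gene, is expressed by cytotoxic lymphocytes. It held 8, 2, 3 and 1 counts in the controls (0.384, 0.0935, 0.154 and 0.0457 CPM) and 36, 23, 18 and 28 counts in the knockdown samples (1.14, 0.669, 0.619 and 0.718 CPM). The groups did not overlap, though the control values rest on few reads. Fasl rose by 2.19 ± 0.49 (log2, SE; adjusted p = 0.00279, edgeR), and by 2.97 without control replicate 1. The log2 ratio of Fasl to Fas went from -6.54 ± 1.22 to -4.60 ± 0.36 (SD, n = 4 each; exact permutation p = 0.0286, adjusted 0.0457). This pair too was chosen after its values were seen, and Fasl passed the low-count filter through the knockdown samples alone.

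Tnf itself was low and higher in the knockdown livers. It held 0.288, 0.608, 0.309 and 0.914 CPM in the controls and 1.83, 1.60, 1.86 and 1.08 CPM in the knockdown samples. Knockdown replicate 4 stood only just above control replicate 4. Tnf rose by 1.56 ± 0.37 (log2, SE; adjusted p = 0.00381, edgeR).

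The receptors for TNF differed little. Tnfrsf1a, the death-domain TNF receptor, held 100.7, 95.2, 96.6 and 101.3 CPM in the controls and 118.7, 121.3, 122.3 and 119.0 CPM in the knockdown samples. Replicates agreed within a few percent and the groups did not overlap, so a small rise of 0.29 ± 0.06 (log2, SE) passed the test (adjusted p = 0.00221, edgeR). Tnfrsf1b, the receptor without a death domain, held 64.4, 51.5, 93.8 and 64.0 CPM in the controls and 75.9, 70.9, 63.0 and 67.0 CPM in the knockdown samples. Control replicates 2 and 3 spanned the whole knockdown range, and the difference was 0.02 ± 0.15 (adjusted p = 0.933, edgeR). With total counts as the scale the difference was 0.59 (adjusted p = 0.00688), close to the shift of the median gene. The log2 ratio of Tnfrsf1a to Tnfrsf1b was 0.56 ± 0.36 in the controls and 0.80 ± 0.13 in the knockdown samples (SD, n = 4 each; exact permutation p = 0.257, adjusted 0.294). The ratio of Tnf to Tnfrsf1a went from -7.63 ± 0.75 to -6.26 ± 0.35 with overlapping groups (exact permutation p = 0.0571, adjusted 0.0762).

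Ltb encodes the membrane anchor of the lymphotoxin heterotrimer. It held 1.06, 0.841, 1.13 and 1.05 CPM in the controls and 3.98, 3.08, 4.64 and 2.33 CPM in the knockdown samples. The controls were tightly grouped and all knockdown samples lay above them. Ltb rose by 1.77 ± 0.25 (log2, SE; adjusted p = 0.000149, edgeR).

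Ltbr, the receptor for that heterotrimer, did not follow. It held 71.2, 67.8, 64.5 and 81.2 CPM in the controls and 56.0, 71.6, 70.4 and 69.3 CPM in the knockdown samples, and the groups overlapped. The difference was -0.09 ± 0.10 (log2, SE; adjusted p = 0.459, edgeR), but 0.47 and called under total-count scaling (adjusted p = 0.00367), where the median gene was at 0.564. The log2 ratio of Ltb to Ltbr went from -6.09 ± 0.22 to -4.29 ± 0.51 without overlap (SD, n = 4 each; exact permutation p = 0.0286, adjusted 0.0457).

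LIGHT, encoded by Tnfsf14, binds both the lymphotoxin beta receptor and HVEM, the product of Tnfrsf14. Tnfsf14 was low, at 0.192, 0.234, 0.154 and 0.274 CPM in the controls and 0.505, 0.552, 0.550 and 0.590 CPM in the knockdown samples, without overlap. It rose by 1.34 ± 0.30 (log2, SE; adjusted p = 0.00298, edgeR). Tnfrsf14 held 3.75, 3.51, 3.45 and 5.16 CPM against 7.10, 5.29, 4.85 and 5.10 CPM, and control replicate 4 lay within the knockdown range. Its rise of 0.49 ± 0.19 passed narrowly (adjusted p = 0.0417, edgeR). Leaving out control 1, 2 or 3 or knockdown 1, 2 or 4 ended the call (adjusted p = 0.0925, 0.108, 0.104, 0.126, 0.0668 and 0.0510), as did the replicate number as a block (adjusted p = 0.0560).

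RANK (Tnfrsf11a) and its soluble decoy competitor osteoprotegerin (Tnfrsf11b) both bind RANKL, and their transcripts rose by similar amounts. Tnfrsf11a held 1.97, 2.57, 1.65 and 2.60 CPM in the controls and 7.79, 6.69, 5.71 and 6.28 CPM in the knockdown samples, a rise of 1.58 ± 0.19 (log2, SE; adjusted p = 3.72e-05, edgeR). Tnfrsf11b held 2.69, 2.85, 2.73 and 1.69 CPM against 11.3, 8.20, 5.91 and 5.21 CPM, a rise of 1.62 ± 0.27 (adjusted p = 0.000406, edgeR). Neither gene's groups overlapped, and the knockdown samples of Tnfrsf11b were widely spread. The log2 ratio of Tnfrsf11b to Tnfrsf11a was 0.17 ± 0.58 in the controls and 0.15 ± 0.34 in the knockdown samples (SD, n = 4 each; exact permutation p = 0.943, adjusted 0.943), a difference of -0.02. The RANKL gene Tnfsf11 had 1 count over all controls and 4 over all knockdown samples and was not tested.

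Cd27 and Tnfrsf9 encode receptors that costimulate T cells, and both were low and rose. Cd27 held 0.144, 0.467, 0.257 and 0.868 CPM in the controls and 2.93, 1.95, 1.20 and 1.49 CPM in the knockdown samples, and rose by 2.10 ± 0.46 (log2, SE; adjusted p = 0.00271, edgeR). Tnfrsf9, which encodes 4-1BB, held 1, 4, 2 and 11 counts in the controls (0.0480, 0.187, 0.103 and 0.502 CPM) and 56, 54, 24 and 40 counts in the knockdown samples (1.77, 1.57, 0.825 and 1.03 CPM). It rose by 2.57 ± 0.51 (adjusted p = 0.00141, edgeR), and by 3.46 without control replicate 4. In both genes control replicate 4 was the highest control and knockdown replicate 3 the lowest knockdown sample, and the groups stayed apart.

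Tnfrsf18, the GITR gene, held 0.624, 1.03, 0.618 and 0.914 CPM in the controls and 1.39, 1.37, 1.58 and 1.46 CPM in the knockdown samples. The groups did not overlap, and Tnfrsf18 rose by 0.86 ± 0.24 (log2, SE; adjusted p = 0.0109, edgeR). It shares exon bases with the opposite-strand gene Gm16008, which held 0.425 ± 0.159 and 0.426 ± 0.105 CPM (SD, n = 4 each). Tnfrsf4, the OX40 gene, held 3, 3, 9 and 5 counts against 13, 16, 13 and 30 counts, with overlapping CPM values. Its rise of 1.12 ± 0.43 (adjusted p = 0.0425, edgeR) was lost with DESeq2 (adjusted p = 0.0802) and with the replicate number as a block (adjusted p = 0.0555). Leaving out control 1, 2 or 4 (adjusted p = 0.118, 0.122 and 0.0782) or knockdown 2, 3 or 4 also ended it (adjusted p = 0.0646, 0.0530 and 0.128).

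Cd40, the receptor through which T cells license antigen-presenting cells, held 1.01, 0.982, 0.720 and 1.14 CPM in the controls and 2.59, 2.73, 1.51 and 2.59 CPM in the knockdown samples. Knockdown replicate 3 stood below the other knockdown samples but above every control. Cd40 rose by 1.29 ± 0.25 (log2, SE; adjusted p = 0.00133, edgeR). Its ligand gene Cd40lg had 7 counts over each group and was not tested.

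Markers of several immune cell types moved with these genes, and their part in the results was not tested. The counts below stand beside 29.5% of all genes tested called higher and 27.8% lower (63.9% and 7.72% under total-count scaling). Of 11 tested T cell markers 10 rose and 1, Cd4, fell, and the summed level of the list was 16.0 to 27.3 CPM in the controls and 42.9 to 58.2 CPM in the knockdown samples. For NK cells 6 of 7 tested markers rose (7.06 to 15.2 against 26.3 to 35.7 CPM), and for macrophages and Kupffer cells 10 of 11 (492 to 664 against 1222 to 1459 CPM). Within the macrophage sum Cd5l alone had a mean of 262 CPM in the controls and 719 in the knockdown samples. Clec4f was the 1 not called (76.6 against 96.3 mean CPM, adjusted p = 0.119, edgeR). Among dendritic cell markers 4 of 7 rose and 1 fell (22.4 to 28.3 against 34.0 to 64.1 CPM). Of stellate cell and fibroblast markers 8 of 11 rose and 1 fell (267 to 342 against 614 to 1034 CPM). Of 10 hepatocyte markers 0 rose and 8 fell (1 and 5 under total-count scaling), at 64165 to 84164 CPM in the controls and 54629 to 69559 CPM in the knockdown samples, so the labelled tissue was clearly present. For B and plasma cells 1 of 7 tested markers rose and 0 fell (5.09 to 8.77 against 6.62 to 10.8 CPM), and for neutrophils 1 of 5 rose and 0 fell (4.12 to 9.68 against 10.1 to 17.8 CPM). Endothelial markers had 1 of 9 higher and 2 lower (368 to 430 against 245 to 447 CPM), and cholangiocyte markers 3 of 6 higher and 1 lower (64.6 to 83.0 against 97.5 to 131 CPM). Erythroid and platelet markers had 2 of 5 higher and 1 lower (290 to 468 against 299 to 397 CPM), and the 1 tested mesothelial marker was not called (0.411 to 5.92 against 0.814 to 3.50 CPM). Under total-count scaling the calls higher and lower were 10 and 1 for T cells, 6 and 0 for NK cells and 11 and 0 for macrophages. They were 4 and 0 for dendritic cells, 10 and 0 for stellate cells and fibroblasts and 3 and 0 for B and plasma cells. Neutrophils had 2 and 0, endothelial cells 3 and 0, cholangiocytes 5 and 0, and erythroid cells and platelets 4 and 1. No marker was at 0 counts over a whole group.

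APRIL (Tnfsf13) and BAFF (Tnfsf13b) support B and plasma cells through the receptors TACI, BAFF receptor and BCMA. Tnfsf13 held 2.21, 2.2, 1.44 and 1.32 CPM in the controls and 3.12, 3.69, 3.75 and 4.18 CPM in the knockdown samples, and rose by 1.04 ± 0.21 (log2, SE; adjusted p = 0.00175, edgeR). The readthrough gene Tnfsfm13, which joins Tnfsf12 to Tnfsf13 on chromosome 11 (69682577 to 69696098), held 3.46, 3.69, 3.35 and 5.21 CPM against 7.04, 6.69, 6.53 and 6.34 CPM, and rose by 0.76 ± 0.16 (adjusted p = 0.00219, edgeR). Both sets of groups stayed apart. Since Tnfsf12, Tnfsf13, Tnfsfm13 and the antisense Tnfsf13os share exon bases, their separate values are uncertain.

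Tnfsf13b held 8, 2, 8 and 11 counts in the controls and 34, 24, 20 and 16 counts in the knockdown samples. On the CPM scale knockdown replicate 4 (0.410) fell within the control range (0.0935 to 0.502). The difference of 1.03 ± 0.45 (log2, SE) did not pass (adjusted p = 0.0701, edgeR), but passed without knockdown replicate 4 (1.23, adjusted p = 0.0399) and under total-count scaling (1.59, adjusted p = 0.00940). Tnfrsf13b, the TACI gene, held 0.528, 0.795, 0.875 and 1.32 CPM against 1.42, 1.16, 1.24 and 1.28 CPM, with control replicate 4 inside the knockdown range. The difference of 0.53 ± 0.28 did not pass (adjusted p = 0.129, edgeR), but it was 0.79 without control replicate 4 (adjusted p = 0.0269) and 1.08 under total-count scaling (adjusted p = 0.00855). The BAFF receptor gene Tnfrsf13c had 11 and 26 counts over the groups, and the BCMA gene Tnfrsf17 had 0 in every sample.

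Tnfrsf21, which encodes death receptor 6, held 7.16, 8.32, 6.38 and 6.85 CPM in the controls and 21.8, 18.5, 15.4 and 15.4 CPM in the knockdown samples. The groups were well separated, and Tnfrsf21 rose by 1.30 ± 0.14 (log2, SE; adjusted p = 2.15e-05, edgeR). Tnfrsf19, the TROY gene, held 1.54, 1.40, 3.04 and 4.52 CPM against 3.94, 2.62, 1.72 and 3.77 CPM. The control samples alone spanned the whole knockdown range, and the difference of 0.20 ± 0.38 did not pass (adjusted p = 0.676, edgeR).

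The 14 members that were not tested had at most 36 counts over the controls and 50 over the knockdown samples. Their normalised means were higher in the knockdown samples for 9, lower for 4 (Tnfrsf25, Tnfsf13os, Cd40lg and Cd70) and equal for Tnfrsf17, which had no counts, and the groups overlapped for each. The most abundant by summed counts were Tnfsf13os (36 in the controls against 50 in the knockdown samples), Tnfsf9, the 4-1BB ligand gene (12 against 41), and Tnfrsf25, the receptor for the Tnfsf15 product (22 against 30). Tnfsf8, the CD30 ligand gene, had 8 against 34 counts, Tnfrsf8, the CD30 gene, 7 against 18, and Tnfsf15 2 against 17. Tnfsf18 (1 against 8), Lta (0 against 5), Tnfsf4 (0 against 1) and Cd70 (1 against 0) were barely detected. In a fit without the filter, 13 of the 14 could be tested and 0 were called in either direction (edgeR), with 1 at an unadjusted p under 0.05, Tnfsf15 (adjusted p = 0.118).

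**Figure D2:**
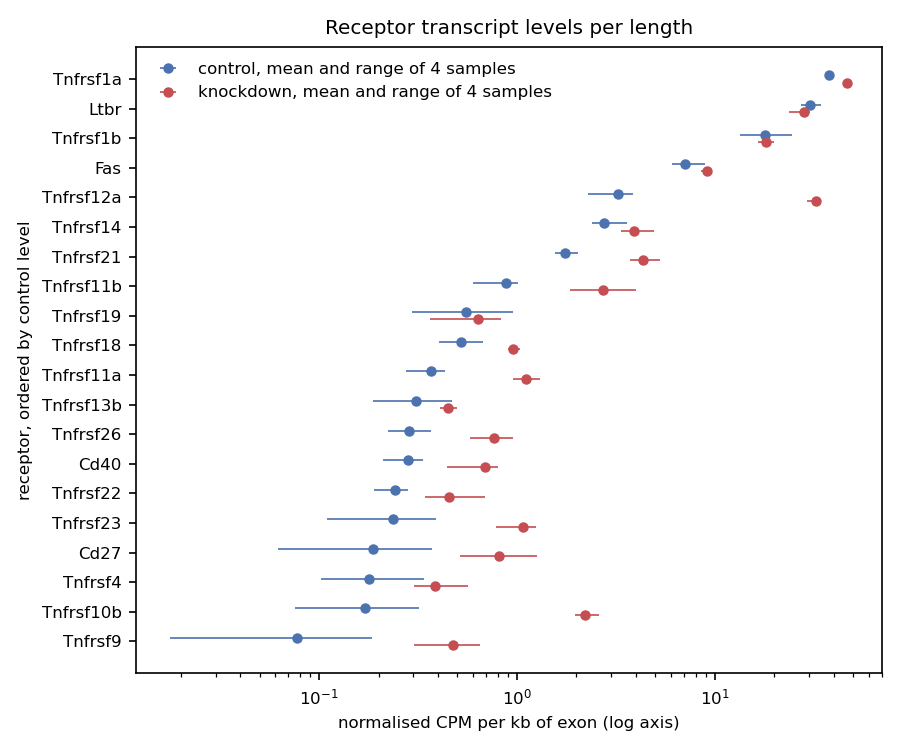
Points are mean normalised CPM per kb of exon, with bars from the lowest to the highest of 4 samples, for the 20 tested receptor genes on a log axis, in the order of the control level (blue, control; red, knockdown). Tnfrsf12a moves from 3.25 to 32.6 CPM per kb and stands beside Ltbr in the knockdown livers.

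Levels of different genes were compared as CPM per kb of annotated exon. In the controls the highest were Tnfrsf1a (38.0 ± 1.16), Ltbr (30.2 ± 3.07), Tnfrsf1b (17.9 ± 4.70) and Fas (7.09 ± 1.25; SD, n = 4 each), and samples of successive genes in this order did not overlap. The TWEAK gene Tnfsf12 followed at 5.40 ± 0.598, overlapping Fas, and was the highest ligand, though it shares exon bases with Tnfsfm13. Tnfrsf12a ranked 6 of 29 in the controls (3.25 ± 0.715) and 2 in the knockdown samples (32.6 ± 2.34), where it overlapped Ltbr (28.4 ± 3.10). Its share of the summed level of the 20 tested receptors went from 3.08 ± 0.579% to 20.9 ± 1.27%. The share of Tnfrsf1a was 36.2 ± 1.92% and 29.9 ± 0.847%, and that of Ltbr 28.7 ± 2.19% and 18.2 ± 1.88%. The level of Tnfrsf1a itself was 38.0 ± 1.16 CPM per kb in the controls and 46.4 ± 0.679 in the knockdown samples. Tnfrsf10b ranked 25 in the controls (0.170 ± 0.107) and 13 in the knockdown samples (2.21 ± 0.303), still a small part of the receptor total (1.42 ± 0.169%). The sum over the 20 receptors was 105.3 ± 7.17 CPM per kb in the controls and 155.6 ± 3.8 in the knockdown samples. Within it Tnfrsf12a alone went from 3.25 to 32.6. The sum includes Cd27, Tnfrsf10b, Tnfrsf23, Tnfrsf4 and Tnfrsf9, which passed the low-count filter through the knockdown samples alone.

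**Figure D3:**
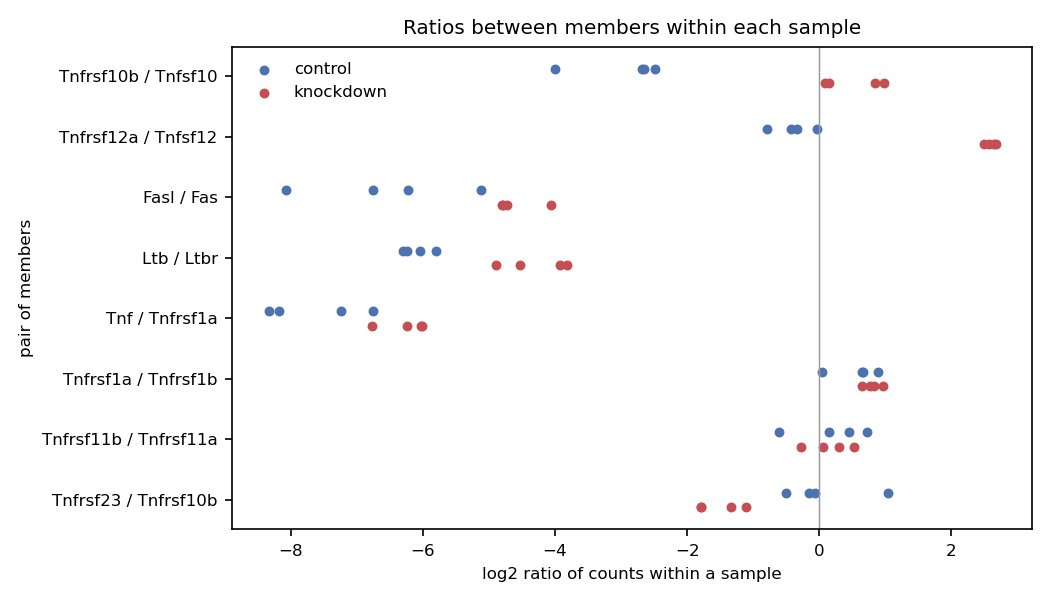
Each point is the log2 ratio of the counts of 2 members in 1 sample (blue, control; red, knockdown), for the 8 pairs compared. The groups lie apart for 5 pairs, whereas Tnf over Tnfrsf1a, Tnfrsf1a over Tnfrsf1b and Tnfrsf11b over Tnfrsf11a overlap.

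Many members sit next to one another in the genome, and neighbours did not always move alike. With a gap of at most 200000 bases, 24 members formed 9 groups. On chromosome 6 (125232622 to 125362484) Cd27 rose by 2.10, Tnfrsf1a by 0.29, and Ltbr between them differed by -0.09 on the log2 scale. On chromosome 17 Ltb and Tnf, which lie within 35194439 to 35205351 with Lta, rose by 1.77 and 1.56. All 3 genes of the chromosome 7 group rose, as did both tested neighbours on chromosome 4 at 156013843 to 156028895, Tnfrsf4 and Tnfrsf18. The calls of Tnfrsf22 and Tnfrsf4 were each lost when certain single samples were left out, and that of Tnfrsf4 also with DESeq2. On chromosome 4 at 145213463 to 145315164, Tnfrsf1b was not called and Tnfrsf8 not tested.

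**Figure D4:**
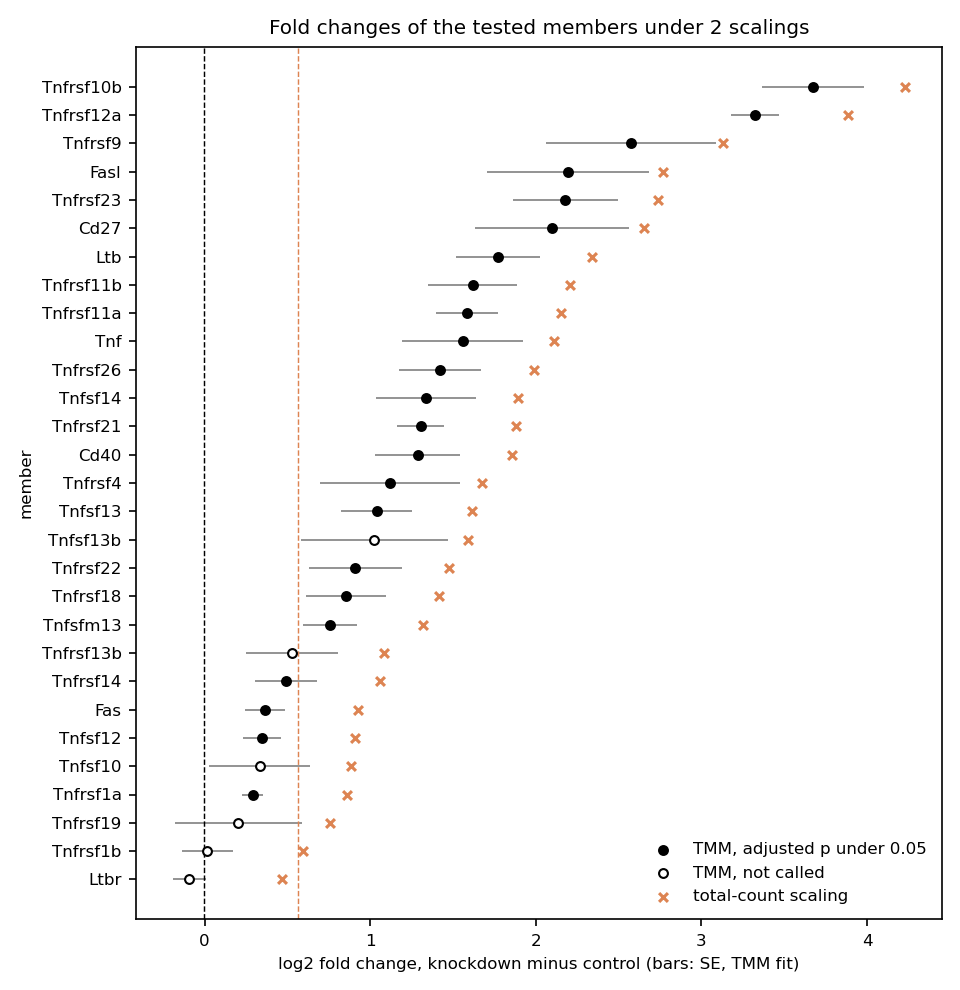
Log2 fold changes of the 29 tested members with their SE after TMM normalisation (filled, called; open, not called) and under total-count scaling (crosses). The dashed lines mark the median of all genes under each scaling, and the crosses lie to the right of the TMM values by about the 0.564 that separates those lines.

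Scaling set how many members passed but reversed no call. Under total-count scaling 28 of the 29 tested members were called higher and 0 lower, where 63.9% of all genes were higher and 7.72% lower. The calls that the TMM fit did not make were Ltbr, Tnfrsf1b, Tnfsf10 (0.89, adjusted p = 0.0368), Tnfrsf13b and Tnfsf13b. On that scale Fas was at 0.93, Tnfsf12 at 0.91, Tnfrsf1a at 0.86, Tnfrsf14 at 1.06, Tnfrsf18 at 1.41, Tnfrsf22 at 1.48, Tnfsfm13 at 1.32 and Tnfsf13 at 1.61, each over 1.5 times its TMM value. Of the 23 called members, 18 kept their call whichever single sample was left out. Without control replicate 4, 24 members were called higher, the additional ones being Tnfrsf13b and Tnfsf10, while Tnfrsf4 was lost. The authors' deposited table marked 15 of the members as significant, all of them higher, and 4.60% of all 55536 listed genes as significant and higher. By an adjusted p under 0.05 alone, that table held 22 members, with 0 lower. Its mark was stricter than that threshold, since Tnfrsf1a, at 1.22-fold, passed it and was not marked.

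Lists of related genes are read against the 29.5% of all genes tested that were higher and the 27.8% that were lower (63.9% and 7.72% under total-count scaling). Of 36 adaptors, ubiquitin ligases and kinases near the receptor, 16 rose and 8 fell, with a median log2 fold change of 0.19 (-0.003 over all genes tested). Under total-count scaling 30 were higher and 0 lower. Mlkl, the executor of necroptosis, rose by 1.69 ± 0.15, the NF-kB restraining factor Tnip1 by 1.46 ± 0.14, Ripk3, the kinase that activates Mlkl, by 1.52 ± 0.16 and the adaptor Traf3 by 0.88 ± 0.10 (log2, SE). Of the 14 NF-kB subunits, kinases and inhibitors 6 rose and 3 fell (median 0.23; 11 and 0 under total-count scaling). Relb and Nfkb2, which form the noncanonical dimer, rose by 1.80 ± 0.22 and 1.01 ± 0.13, and the kinase subunits Chuk and Ikbkg fell by 0.61 ± 0.07 and 0.58 ± 0.07, though no gene of either list was lower under total-count scaling.

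Of 6 genes that control shedding of TNF and its receptors, 4 rose and 1, the protease gene Furin, fell by 0.39 ± 0.10 (median 0.67; 4 and 0 under total-count scaling). Adam17, the TNF-converting enzyme, rose by 0.71 ± 0.10, Adam10 by 0.63 ± 0.09, and Rhbdf2 and Rhbdf1, which escort Adam17 to the surface, by 0.96 ± 0.14 and 1.18 ± 0.19 (log2, SE). Of 29 genes known to be induced by TNF, 23 were tested, 18 rose and 1, Sod2, fell (median 1.59; 21 and 1 under total-count scaling). Lcn2, an iron-sequestering acute-phase gene, rose by 3.98 ± 0.24 and the adhesion molecule gene Vcam1 by 2.02 ± 0.16, Bcl2l1, a survival gene, rose by 0.83 ± 0.10, and the mitochondrial antioxidant gene Sod2 fell by 0.84 ± 0.08. Many of these genes respond to other signals as well. Summed macrophage markers, Cd5l foremost, moved from 492 to 664 CPM in the controls to 1222 to 1459 CPM in the same knockdown samples. The part of these cells in the rises was not tested.

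**Figure D5:**
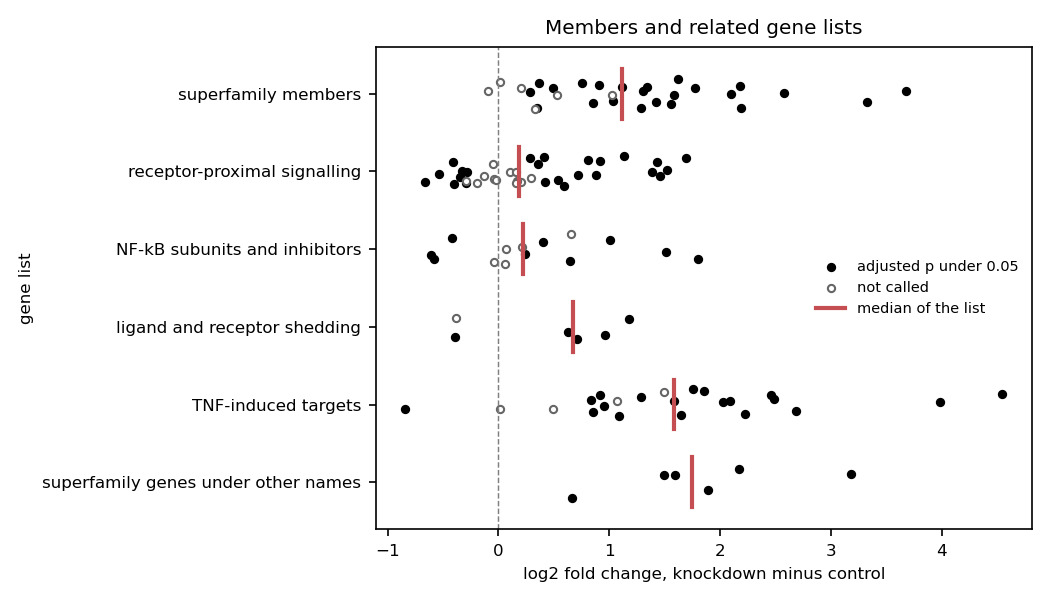
Each point is 1 tested gene with its log2 fold change (filled, adjusted p under 0.05; open, not called), and the red bar is the median of the list. Superfamily members and TNF-induced targets lie mostly right of the dashed median of all genes, at medians of 1.12 and 1.59, whereas the receptor-proximal and NF-kB lists spread to both sides.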

How the data were processed

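RNA of 8 mouse liver samples was isolated with Trizol, cleared of DNA with DNase I, and freed of ribosomal RNA with Ribo-zero, per the labels' protocols. The submitters' processing notes name mm10 and the tools SAMtools 1.9, GATK 3.8, Bowtie2 2.2.9 and fastp 0.19.5. The counting program, annotation and strandedness were not given in the sources used. The authors deposited estimated counts per gene, of which 10.9% are not whole, and these were rounded. The 645 assembled loci without a gene name (0.676 to 1.08% of counts) were left out. The authors' deposited table gives a fold change (a ratio), its log2 value and p-values for their own comparison.

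Columns were assigned by the sample code in the labels. The code held the letter D for replicate 4 of each group and C for the others, and its meaning was not given. The groups were compared with edgeR 4.0.16 under R 4.3.3 (filterByExpr, TMM, glmQLFit, glmQLFTest, Benjamini-Hochberg over 15375 genes). CPM use the summed counts of the tested genes times the TMM factors, and the SE is the size of the log2 fold change divided by the square root of F. The test was checked on simulated data. Replicates differed by more than counting error (lowest chi-square per degree of freedom 8.94). No label says whether they are separate animals, so the p-values cover only variation among these samples, which may be technical. Within-sample ratios of counts used a pseudocount of 0.5 and SciPy 1.17.1. Positions and exon lengths are from GENCODE mouse release 21 and promoter windows from RefSeq (GRCm38.p6). Of the 43 members 9 share exon bases with another gene.

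Values per sample are given for tested members with a mean of at least 1 CPM in either group (25) and their tested partners, and also for Tnfrsf4, chosen after its values were seen. From each pathway list up to 4 called genes with the smallest p-values were named, with 2 exceptions. Furin was added as the shedding gene that fell, and every called gene under another name was named. Members and lists (93 pathway and 101 marker symbols, all matched) were chosen with earlier results of these data known. Alternatives were DESeq2 1.42.0, RLE factors, total-count scaling, no filter, the replicate number or code letter as a term, the samples coded C alone, the assembled loci kept, a required fold above 1.5, and each sample omitted once.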

Additional observations from a re-analysis of the deposited data

Results flagged for a closer look

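Among 60 sets of 4 samples (29 members and Eif4ebp3, in each group), 5 held a sample whose gap to the nearest other exceeded Dixon's 95% limit. Chance flags about 1 in 20 such sets, or about 3 of 60. Knockdown replicate 3 was low for Cd40 (1.51 CPM) and for Fas (17.6 CPM), and knockdown replicate 1 was low for Ltbr (56.0 CPM). Knockdown replicate 4 was high for Tnfrsf4 (0.770 CPM), and control replicate 4 was low for Tnfrsf11b (1.69 CPM). Without the sample concerned, Cd40 and Tnfrsf11b kept their calls, Fas kept its call, Ltbr stayed uncalled and Tnfrsf4 lost its call.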

How the results depend on the processing

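The number of members called higher was 23 and ranged from 18 to 24 when single samples were left out; it was 22 with DESeq2, 22 without a filter, 23 with RLE factors, the code letter as a term or the assembled loci kept, 24 in the samples coded C alone and 28 under total-count scaling. A minimum fold of 1.5 left 15 members. No setting called a member lower. Over all genes, total-count scaling gave 9831 higher and 1187 lower and a minimum fold of 1.5 gave 2399 and 1322, against 4528 and 4272. The uncalled differences of Ltbr (0.47 under total-count scaling), Tnfrsf19 (-0.012 without control replicate 2, within a range of -0.012 to 0.60 over single samples left out) and Tnfrsf1b (range -0.10 to 0.20, below 0 without control 1, 2 or 4 or knockdown 1) changed sign; the cause was not tested. Same-numbered samples of the groups showed no clear shared deviation (correlations of -0.128, -0.0383, 0.0584 and 0.148). Weak correlations do not show that the design had no pairing. With the replicate number as a block 21 members were called higher and 0 lower. Of 493 single-gene values under 17 settings, 443 kept direction and side of the threshold, 35 lost the call, 9 gained it and 6 changed sign. Among these 6, Ltbr under total-count scaling also gained a call. Genes with few counts, such as Tnfrsf9, Fasl, Tnfrsf4 and Tnfsf13b, have the widest errors.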

Other observations

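Genes of the same superfamilies or close to them under other names were listed as well. Of 8 listed, among them Edaradd, the adaptor of the receptor Edar, 6 were tested and 6 rose, with no overlap between groups, where 29.5% of all genes tested were called higher. Eda2r, which encodes a receptor for ectodysplasin A2, went from 1.79 to 16.3 mean CPM and rose by 3.18 ± 0.23 (log2, SE; adjusted p = 1.86e-06, edgeR). Relt rose by 2.17 ± 0.25 and its relative Rell1 by 1.59 ± 0.17, and Eda and Rell2 were the others. Ngfr, the low-affinity neurotrophin receptor, rose by 1.49 ± 0.23, from 2.68 to 7.56 mean CPM. Stellate cells are known to express it, 8 of 11 stellate cell and fibroblast markers rose too, and their part in this rise was not tested. Edar and Edaradd had too few counts to be tested.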
